A study of Homo sapiens with 12 samples.

Results

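The genes described here encode the ligand LIF, the cell surface receptors IL6R, IL6ST, LIFR and OSMR, the kinases JAK1 and JAK2, the transcription factor STAT3 and the inhibitors SOCS2 and SOCS3. These 10 of the 59424 genes in the deposited tables were chosen by name, as receptors of the interleukin 6 (IL6) family and the parts of the JAK-STAT3 pathway behind them, and each had an Ensembl identifier in both tables. They and the gene lists below were chosen with earlier results of these data known. Their shares beside those of all genes are therefore descriptive only. The study asked which genes change when GALNT7, an enzyme that adds N-acetylgalactosamine sugars to proteins in the Golgi, is depleted or raised in prostate cancer cells. RNA-seq was done on 12 libraries of stable cell lines made by lentiviral transduction, in 4 groups of 3 biological replicates. The CWR22Rv1 groups were shControl (Lenti-shControl) and GALNT7 KD, a knockdown by shRNA, and the DU145 groups were OE control (OEControl) and GALNT7 OE, an overexpression. CWR22Rv1 and DU145 are both established human prostate cancer lines. Each line was studied with a change of GALNT7 in 1 direction only, so the line and the direction cannot be told apart, and since the labels do not say how many independently transduced lines the replicates of a group come from, the p-values measure the spread between these cultures.

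Cytokines of the IL6 family signal by drawing receptor chains together at the cell surface. IL6ST (gp130) is the chain that they share, IL6R binds IL6, LIFR binds LIF, and OSMR binds oncostatin M together with IL6ST. The paired chains activate JAK kinases, which phosphorylate STAT3, and STAT3 moves to the nucleus and switches on genes that include its own inhibitor SOCS3. In the prostate the pathway is known for its links to inflammation and tumour growth, and DU145 is known to make IL6 of its own. RNA-seq reads none of the protein steps, so phosphorylation of STAT3 was not measured here.

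The deposited values are normalised counts, the reads on a gene divided by 1 size factor per library, and they traced back to 18364512 to 22264533 reads per library in CWR22Rv1 and 21628718 to 24356910 in DU145. Since Salmon is among the tools named for the processing, these reads may be estimated counts rounded to whole numbers. GALNT7 itself was 999 ± 122 normalised counts in shControl and 461 ± 53.7 in GALNT7 KD (SD, n = 3, log2 fold change -1.11, limma adjusted p = 0.00512), and 964 ± 75.8 in OE control and 2181 ± 176 in GALNT7 OE (log2 fold change 1.18, limma adjusted p = 7.99e-05). The summed normalised count of VIM, CAV1, CAV2, CD44, AXL and ANXA1, 6 genes that mark lines such as DU145, was 54704 to 70540 in the DU145 libraries and 880 to 1120 in the CWR22Rv1 libraries. These are bulk libraries, in which fewer cells with a transcript and less transcript per cell cannot be told apart. Many more genes were called with overexpression, 43.5% of the 18705 tested in DU145, than with knockdown, 9.06% of the 17906 tested in CWR22Rv1 (limma, adjusted p under 0.05), and the median log2 fold change of all genes was -0.011 and -0.006.

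In control cells the lines carried quite different sets of these genes, as the plot of levels per kilobase shows. On the RPKM scale, reads scaled to the depth of the library and to the exon length of the gene, the highest of the 10 in shControl cells was IL6R at 8.86 ± 0.520 (SD, n = 3), followed by STAT3 at 7.03 ± 0.535 and IL6ST at 4.44 ± 0.446, and the libraries of these neighbours did not overlap. SOCS2 (2.39 ± 0.292), JAK2 (2.14 ± 0.196) and LIFR (1.72 ± 0.461) came next, each overlapping its neighbour. LIF (0.733 ± 0.298) and JAK1 (0.612 ± 0.00161) also overlapped each other, and OSMR (0.479 ± 0.107) and SOCS3 (0.124 ± 0.0842) were lowest.

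OE control cells were led by OSMR at 223 ± 1.10 RPKM, with STAT3 next at 65.3 ± 2.60. IL6ST (29.8 ± 1.74), LIF (27.4 ± 1.67), SOCS3 (25.2 ± 1.12) and JAK1 (24.6 ± 2.19) lay close together, and each overlapped its neighbour in this order. SOCS2 (6.38 ± 0.496) overlapped LIFR (5.5 ± 0.422), and IL6R (3.88 ± 0.550) overlapped JAK2 (3.29 ± 0.202), which was lowest.

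**Figure D1:**
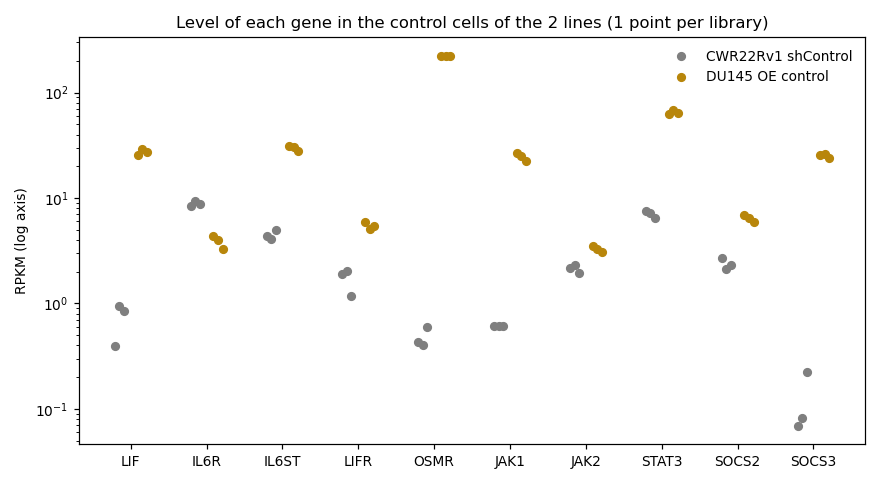
RPKM (reads scaled to library depth and exon length, log axis) of each gene in the 3 shControl libraries of CWR22Rv1 and the 3 OE control libraries of DU145, 1 point per library. IL6R is the only gene of the 10 that is higher in CWR22Rv1, and OSMR and SOCS3 stand furthest apart between the lines.

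The lines came from tables normalised separately, so their levels are set side by side with no test. In RPM, scaled to depth but not to length, OSMR was 1599 ± 8.02 in OE control and 3.44 ± 0.771 in shControl, a ratio of 465. SOCS3 was 68.8 ± 3.07 and 0.339 ± 0.230, a ratio of 203, with 4 to 13 reads in each shControl library. JAK1 was 40.3 times, LIF 37.4 times, STAT3 9.29 times, IL6ST 6.71 times, LIFR 3.21 times, SOCS2 2.67 times and JAK2 1.54 times higher in OE control. IL6R went the other way, at 2.28 times higher in shControl. The ligand IL6 was at 0 or 1 read in every CWR22Rv1 library and averaged 3438 normalised counts in OE control, while the OSMR ligand OSM had at most 2 reads in any of the 12 libraries.

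**Figure D2:**
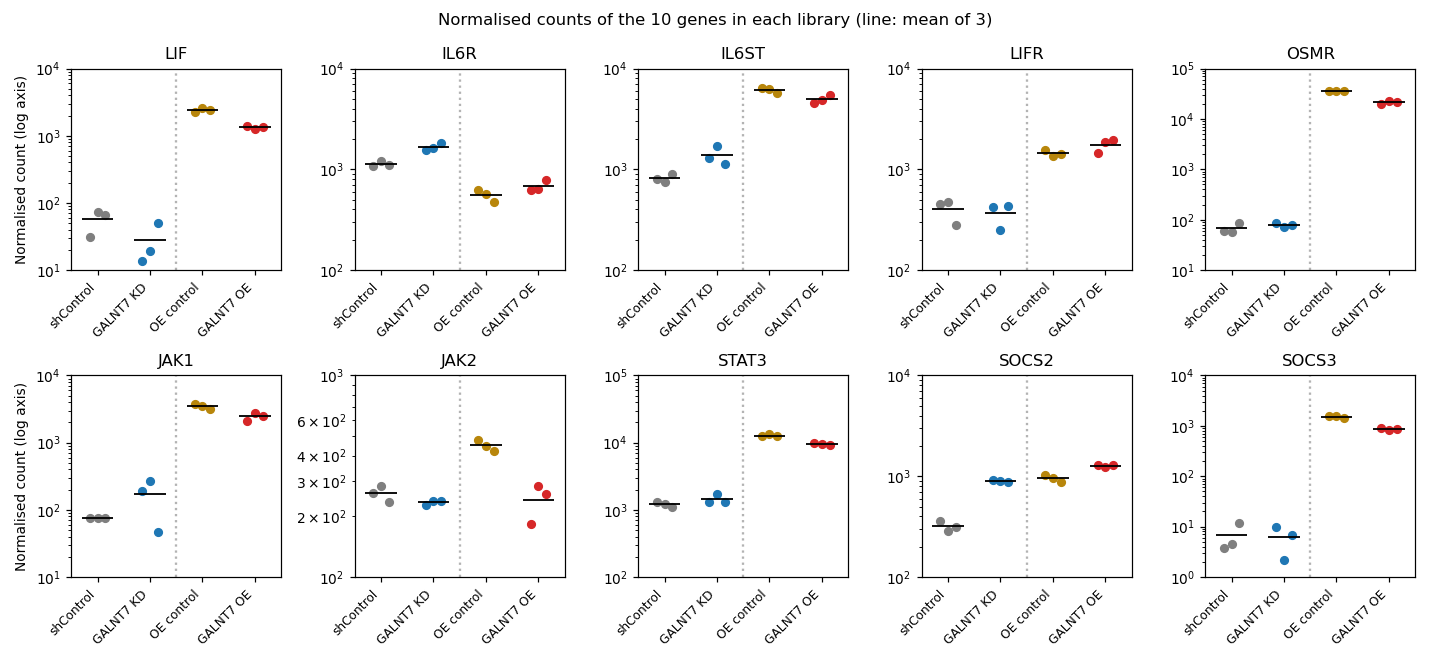
Normalised count (log axis) of each of the 10 genes in every library, with a line at the mean of each group of 3 and a dotted line between the 2 cell lines, whose tables were normalised separately. SOCS2 rises in both comparisons, IL6ST rises with GALNT7 KD and falls with GALNT7 OE, and JAK1 in GALNT7 KD is spread from 47.2 to 272.

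Knockdown of GALNT7 in CWR22Rv1 raised the inhibitor SOCS2 and the receptor chains IL6R and IL6ST. These 3 of 10 genes passed the limma test as higher, against 5.28% of all genes tested, and 7 did not pass. No gene of the 10 passed as lower, against 3.79% of all genes, none had an unadjusted p under 0.05 in that direction, and edgeR and DESeq2 on the recovered reads called 0 lower as well. The median log2 fold change of the 10 was 0.24. The libraries of the groups did not overlap for these same 3 genes, each higher with knockdown, against 32.5% of all genes tested in either direction and 16.9% higher.

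IL6R, the IL6 binding chain, had 1073, 1199 and 1107 normalised counts in the shControl libraries and 1568, 1636 and 1832 in the GALNT7 KD libraries. Every knockdown library lay above every control, and the log2 fold change was 0.57 (SE 0.0820, limma adjusted p = 0.0103), a rise of 49.0% in the mean. It was called under every alternative tried.

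IL6ST, the shared signalling chain, had 797, 742 and 902 normalised counts in shControl and 1285, 1692 and 1141 in GALNT7 KD. The groups were again apart, but the knockdown libraries were spread more widely, with a mean of 1373 ± 286 against 814 ± 81.3 (SD, n = 3). The log2 fold change was 0.74 (SE 0.154, limma adjusted p = 0.0334). This call was the least firm of the 3, since the adjusted p was 0.0669 to 0.108 without shControl replicate 1, 2 or 3 or without GALNT7 KD replicate 1, 0.0528 with each chromosome centred on its own median and 0.0767 without a variance trend.

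LIFR, the LIF binding chain, had 449, 477 and 277 normalised counts in shControl and 424, 248 and 433 in GALNT7 KD, and 1 library of each group lay far below the other two. The groups overlapped, with a log2 fold change of -0.13 and a 95% interval of -0.81 to 0.55. OSMR was low in this line, at 60.7, 57.5 and 85.2 in shControl and 85.1, 72.5 and 80.0 in GALNT7 KD, and its log2 fold change of 0.24 did not pass (interval -0.23 to 0.71). LIF had 30.8, 74.3 and 66.8 normalised counts in shControl and 13.5, 19.2 and 50.1 in GALNT7 KD, with a log2 fold change of -1.15 whose interval, -2.44 to 0.14, took in 0.

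Neither kinase passed the test in CWR22Rv1. JAK1, which is bound to the receptor chains and is activated with them, had 76.5, 76.0 and 76.0 normalised counts in shControl and 191, 272 and 47.2 in GALNT7 KD. The controls were almost equal while the knockdown libraries fell on both sides of them, so the log2 fold change of 0.82 had a wide interval of -0.60 to 2.24 (limma adjusted p = 0.438). Without GALNT7 KD replicate 3, the library at 47.2, the log2 fold change was 1.57 and the adjusted p was 0.0153. RAVER2, which overlaps JAK1 on the other strand, averaged 360 normalised counts over the 6 libraries. JAK2, the other kinase, had 262, 283 and 235 in shControl and 227, 239 and 239 in GALNT7 KD (log2 fold change -0.14, interval -0.40 to 0.11).

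STAT3 had 1306, 1238 and 1120 normalised counts in shControl and 1324, 1696 and 1291 in GALNT7 KD. The groups overlapped, and the log2 fold change of 0.23 did not pass (SE 0.121, limma adjusted p = 0.292). SOCS3, which STAT3 switches on and which blocks JAK activity, was near the limit of detection, with 4, 5 and 13 reads in the shControl libraries and 10, 2 and 7 in the GALNT7 KD libraries. A change in SOCS3 was not detectable at this depth (log2 fold change interval -1.65 to 1.41).

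SOCS2, an inhibitor best known for restraining growth hormone receptor signalling, gave the largest change of the 10. It had 362, 285 and 311 normalised counts in shControl and 925, 888 and 885 in GALNT7 KD, 2.82 times the control mean. The knockdown libraries lay close together and far above the controls, and the log2 fold change was 1.5 (SE 0.105, limma adjusted p = 0.000947). By log2 fold change SOCS2 ranked 270 from the top of the 17906 genes tested.

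Overexpression of GALNT7 in DU145 lowered most of these 10 genes. Of the 10, 7 passed as lower (LIF, OSMR, IL6ST, JAK1, JAK2, STAT3 and SOCS3), against 20.5% of all genes tested, and SOCS2 was the only 1 that passed as higher, against 22.9%. The 10 were chosen with earlier results of these data known, so this difference is not a test of the set. IL6R and LIFR did not pass. The groups did not overlap for 9 of 10 genes, the exception being LIFR, against 55.3% of all genes in either direction, 27.1% lower and 28.2% higher. The median log2 fold change was -0.45, and the 7 that fell did so by modest amounts, from 0.31 to 0.92 on the log2 scale.

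**Figure D3:**
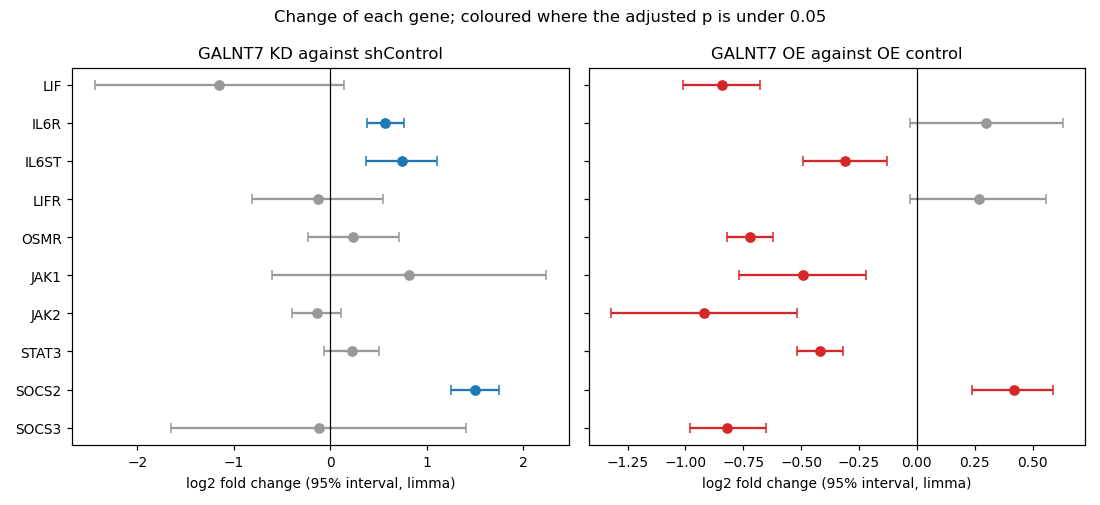
Log2 fold change of each gene on the log2(normalised count + 1) scale, with its 95% interval from limma, for GALNT7 KD against shControl in CWR22Rv1 and GALNT7 OE against OE control in DU145 (n = 3 per group). Coloured points passed an adjusted p of 0.05: 3 genes to the right of 0 with knockdown, and 7 to the left and 1 to the right with overexpression.

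LIF, a ligand that acts through LIFR and IL6ST, had 2277, 2558 and 2395 normalised counts in OE control and 1404, 1256 and 1369 in GALNT7 OE. Every overexpressing library was lower than every control, and the mean fell by 44.3% (log2 fold change -0.84, SE 0.0694, limma adjusted p = 0.000132).

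OSMR had 35725, 35188 and 35486 normalised counts in OE control and 20185, 22528 and 21963 in GALNT7 OE. The controls agreed closely and the groups were far apart, so the fall of 39.2% was well measured (log2 fold change -0.72, SE 0.0431, limma adjusted p = 3.38e-05). Even so, OSMR remained the highest of the 10 genes per kilobase in GALNT7 OE, at 133 ± 7.20 RPKM against 47.9 ± 1.92 for STAT3. RICTOR lies over OSMR on the other strand and averaged 1834 normalised counts over the 6 DU145 libraries, well under the level of OSMR. In CWR22Rv1, RICTOR averaged 723, well over the 67.8 of OSMR in shControl, and whether the counting used strand is not given in the sources used here, although the library kit keeps it.

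IL6ST had 6458, 6228 and 5755 normalised counts in OE control and 4569, 4878 and 5475 in GALNT7 OE. The groups did not overlap, but the nearest libraries, 5755 and 5475, were close, and the fall was 19.1% (log2 fold change -0.31, SE 0.0768, limma adjusted p = 0.0164). The adjusted p was 0.0587, 0.0551 and 0.0502 without OE control replicate 1, OE control replicate 2 or GALNT7 OE replicate 2, and 0.0528 without a variance trend. IL6ST and SOCS2 were the 2 genes of the 10 that passed in both comparisons, IL6ST in opposite directions and SOCS2 in the same direction.

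The ligand binding chains IL6R and LIFR did not pass, and both point estimates were above 0. IL6R had 624, 574 and 470 normalised counts in OE control and 630, 632 and 790 in GALNT7 OE, so the groups just missed each other, with a log2 fold change of 0.30 and an interval of -0.03 to 0.63 (limma adjusted p = 0.123). LIFR had 1571, 1345 and 1427 in OE control and 1439, 1867 and 1949 in GALNT7 OE. Its log2 fold change was 0.27 (interval -0.03 to 0.56), and it was 0.40 with an adjusted p of 0.0119 without GALNT7 OE replicate 1, the library that overlapped the controls.

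LIFR was also the one gene of the set with a STAT motif in the promoter windows searched. RefSeq promoter windows on GRCh38.p14, from 250 bases before to 50 bases after a start site, were given for 8 of the 10 genes, all but LIF and SOCS2. They were searched for TTCNNNGAA, the spaced palindrome that STAT dimers bind, which reads the same on both strands. It was found in 1 of the 8 genes, against 9.38% of all 27305 genes with such windows, and LIFR carried it in front of 2 of its 3 start sites, 165 and 182 bases before them. Both stretches are shown 5′ to 3′ on the minus strand, with the motif in capitals, because they are the only matches in these windows.
LIFR, chr5:38595532-38595600: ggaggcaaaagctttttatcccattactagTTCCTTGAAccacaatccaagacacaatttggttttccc
LIFR, chr5:38557611-38557679: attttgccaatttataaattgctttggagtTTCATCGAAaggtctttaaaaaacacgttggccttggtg
A match describes the letters only, and nothing about binding follows from it or from its absence in the other windows. SOCS3 lies on the minus strand, with its annotated start at chr17:78360077. Its windows, chr17:78359618-78359917 and chr17:78360876-78361175, leave out the bases just before that start, so a motif there would have been missed.

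Both kinases fell in DU145. JAK1 had 3742, 3489 and 3127 normalised counts in OE control and 2095, 2786 and 2513 in GALNT7 OE, a fall of 28.6% (log2 fold change -0.49, SE 0.115, limma adjusted p = 0.0127). JAK2, which was much less abundant, had 480, 448 and 424 in OE control and 183, 282 and 259 in GALNT7 OE. Its mean fell by 46.4%, by point estimate the largest fall of the 10 genes (log2 fold change -0.92, SE 0.168, limma adjusted p = 0.00445). With each replicate left out, the log2 fold change of JAK2 ran from -1.04 to -0.73, which takes in those of LIF (-0.84) and SOCS3 (-0.82). GALNT7 OE replicate 1 was the lowest library for both kinases.

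STAT3 had 12388, 13300 and 12615 normalised counts in OE control and 9841, 9532 and 9207 in GALNT7 OE. The groups were well separated, and the mean fell by 25.4% (log2 fold change -0.42, SE 0.0422, limma adjusted p = 0.000301). SOCS3 had 1555, 1573 and 1450 in OE control and 919, 822 and 857 in GALNT7 OE, a fall of 43.3% (log2 fold change -0.82, SE 0.0690, limma adjusted p = 0.000146). SOCS3 thus fell by more than STAT3 did, with log2 fold change intervals of -0.98 to -0.65 and -0.52 to -0.32 that did not overlap.

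SOCS2 went against the rest of the pathway in DU145. It had 1032, 963 and 882 normalised counts in OE control and 1300, 1239 and 1292 in GALNT7 OE, a rise of 33.2% in the mean with no overlap between the groups (log2 fold change 0.42, SE 0.0743, limma adjusted p = 0.00406).

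The rise of SOCS2 in both lines was shared by SOCS2-AS1, a transcript read from the other strand. SOCS2 is at chr12:93569814-93583487 on the plus strand of GRCh38 and SOCS2-AS1 is at chr12:93542463-93571768 on the minus strand, with 1955 bases in common. SOCS2-AS1 had 40.1, 52.2 and 55.9 normalised counts in shControl and 163, 161 and 189 in GALNT7 KD (log2 fold change 1.78, SE 0.174, limma adjusted p = 0.00305). In DU145 it had 152, 144 and 161 in OE control and 253, 234 and 265 in GALNT7 OE (log2 fold change 0.71, SE 0.106, limma adjusted p = 0.00182). Where reads fall on the shared bases and strand was not used in counting, the 2 genes cannot be told apart.

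In CWR22Rv1 the median gene of chromosome 12 did not rise with this locus, and in DU145 it rose slightly. The median log2 fold change of the 922 genes of chromosome 12 tested in CWR22Rv1 was -0.277 with knockdown, the lowest of any chromosome, and relative to the control mean the knockdown libraries lay between -0.289 and -0.243. SOCS2 was 1.47 to 1.54 and SOCS2-AS1 was 1.7 to 1.93 above its control mean in the same libraries. In DU145 the median of 940 genes was 0.069, and SOCS2 was 0.37 to 0.44 and SOCS2-AS1 was 0.62 to 0.80 above the control mean in the overexpressing libraries. Another gene of the chromosome rose by about as much: LUM, at chr12:91102629-91111831 on the minus strand, went from 225 to 626 normalised counts on average with knockdown (log2 fold change 1.47, limma adjusted p = 0.00156), and DCN, which lies beside LUM, was at a log2 fold change of 1.2 and did not pass (limma adjusted p = 0.0886). With each chromosome centred on its own median, SOCS2 stayed past the threshold in both comparisons.

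**Figure D4:**
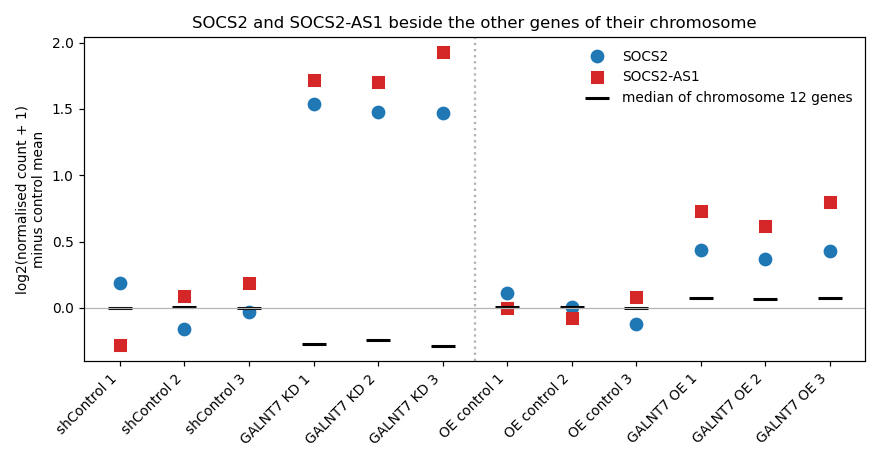
Log2(normalised count + 1) of SOCS2, of SOCS2-AS1 and of the median gene of chromosome 12, each minus its mean in the control libraries of the same line, for every library. In GALNT7 KD both genes lie between 1.47 and 1.93 while the chromosome lies between -0.289 and -0.243. In GALNT7 OE both genes lie between 0.37 and 0.80 while the chromosome lies between 0.069 and 0.076.

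Beyond these 10, a list of 38 other genes of the pathway held further ligands, receptors, kinases, STAT factors and inhibitors. In CWR22Rv1, 29 were tested, 2 passed as higher and 0 passed as lower, with a median log2 fold change of 0.06. The higher calls are 6.9% of those tested, near the 5.28% of all genes, and 3.79% of all genes passed as lower. At an unadjusted limma p under 0.05, 6 were lower, and edgeR called 1 lower and DESeq2 called 3. The 2 that rose were IL27RA, the receptor of interleukin 27, which also pairs with IL6ST, from 54.0 ± 1.47 to 94.9 ± 9.13 normalised counts (SD, n = 3, log2 fold change 0.80, limma adjusted p = 0.0238), and PIAS1, an inhibitor of activated STATs, from 1231 ± 132 to 2060 ± 64.5 (log2 fold change 0.75, limma adjusted p = 0.00585). IL27RA lost its call without any one of shControl replicates 1, 2 and 3 and GALNT7 KD replicates 1 and 2, at adjusted p values of 0.0662 to 0.0915.

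In DU145, 32 of the 38 were tested, 15 passed as lower and 5 as higher, and the median log2 fold change was -0.27. These are 46.9% and 15.6% of the genes tested, against 20.5% and 22.9% of all genes, and the other 12 did not pass. Of the STAT factors and kinases of the list, 4 of 6 and 2 of 2 passed as lower and 0 as higher with limma, while STAT4 and STAT5B did not pass, at log2 fold changes of 0.17 and -0.13. STAT2, a factor of the interferon pathway, had 4259, 4362 and 4287 normalised counts in OE control and 1851, 1686 and 1796 in GALNT7 OE (log2 fold change -1.28, SE 0.0509). STAT5A, which lies beside STAT3 on chromosome 17, went from 397 ± 19.5 to 182 ± 39.5 (log2 fold change -1.14, SE 0.167). STAT6, JAK3 and TYK2, named here after their values were seen, also passed, at log2 fold changes of -0.27 to -0.45.

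Among the other ligands, IL6 had 3490, 3402 and 3421 normalised counts in OE control and 996, 1145 and 1155 in GALNT7 OE. Its control libraries averaged 3.13 times the overexpressing ones (log2 fold change -1.65, SE 0.0694, limma adjusted p = 8.35e-06), a larger fall than that of any of its receptor chains. Of the 7 ligands of this list tested, IL6, IL11 and EBI3 were lower. Of 3 receptors tested, IL31RA and IL27RA were lower, IL27RA with a log2 fold change of -0.44 where knockdown in CWR22Rv1 had raised it. IL11, EBI3 and IL31RA are named after their values were seen.

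Of the inhibitors and phosphatases, 14 were tested in DU145, and 4 were lower and 4 higher, with a median log2 fold change of 0.04. Each count is 28.6% of those tested, near the 20.5% and 22.9% of all genes. CISH, a SOCS family member induced by STAT5, went from 131 ± 2.91 to 215 ± 11.6 normalised counts (log2 fold change 0.71, SE 0.104). SOCS7, another family member, went from 1211 ± 88.9 to 1771 ± 139 (log2 fold change 0.55, SE 0.0832), and PTPN11, the phosphatase SHP2 that binds IL6ST, from 7276 ± 369 to 10039 ± 499 (log2 fold change 0.46, SE 0.0539). The other gene that rose was PIAS3, and those that fell were PTPN1, PTPN6, SOCS1 and SOCS6, these 5 named after their values were seen. Within the SOCS family SOCS2, SOCS7 and CISH thus rose, while SOCS3 fell along with SOCS1 and SOCS6, whose levels dropped by 1.54 and 0.73 on the log2 scale. SOCS1 was near the limit of detection, with 19, 20 and 20 reads in OE control and 8, 7 and 4 in GALNT7 OE. SOCS4 and SOCS5, also named after their values were seen, did not pass.

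Genes that STAT3 is known to switch on mostly fell in DU145, and in CWR22Rv1 they were called in both directions. Of 20 such genes, 19 were tested in DU145, 15 passed as lower and 0 as higher, and the median log2 fold change was -0.74. The lower calls are 78.9% of those tested, against 20.5% of all genes, and 1 was higher at an unadjusted limma p under 0.05, and edgeR and DESeq2 called 0 higher. This list too was chosen with earlier results of these data known. The largest falls were in TNFAIP3, which restrains NF-kB, at a log2 fold change of -2.25 (SE 0.174), ICAM1, an adhesion molecule, at -1.93 (SE 0.0824), and BCL6, a transcriptional repressor, at -1.67 (SE 0.136). Several genes of the list, TNFAIP3 and ICAM1 among them, are also targets of NF-kB. In CWR22Rv1 all 20 were tested, 2 passed as higher (10%, against 5.28% of all genes) and 3 as lower (15%, against 3.79%), with a median log2 fold change of -0.06. HIF1A (0.41) and TIMP1 (0.32) were higher and CCND1 (-0.39), MCL1 (-0.29) and TNFAIP3 (-1.0, named after its values were seen) were lower on the log2 scale, and 1 gene of the list passed without shControl replicate 1.

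Acute phase genes, which IL6 induces in liver, were mostly silent in CWR22Rv1, where 2 of 16 were tested and 0 passed with limma, edgeR or DESeq2, with 0 at an unadjusted p under 0.05. In DU145, 11 were tested, 5 passed as lower (C3, SAA1, SAA2 and, named after their values were seen, LRG1 and SERPINA1) and 1 as higher, with a median log2 fold change of -1.24. These are 45.5% and 9.09% of those tested, against 20.5% and 22.9% of all genes, in a list chosen with earlier results of these data known. The complement gene C3 went from 18812 ± 316 to 424 ± 61.1 normalised counts (log2 fold change -5.48, SE 0.0977), SAA1 from 485 ± 11.4 to 10.5 ± 3.10 and SAA2 from 1094 ± 87.1 to 2.63 ± 0.472. SAA1 and SAA2 are close copies of each other, so the share of reads given to each is uncertain. FGB, the fibrinogen beta chain, went the other way, from 26.0 ± 5.98 to 193 ± 16.2 (log2 fold change 2.87, SE 0.210).

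**Figure D5:**
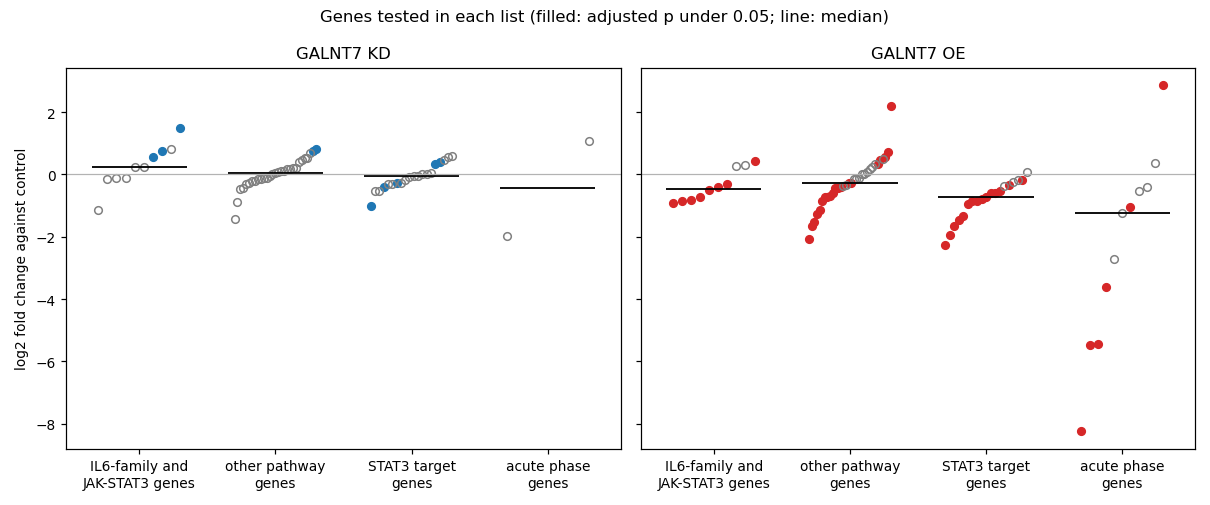
Log2 fold change against control of every gene tested in each list, for GALNT7 KD in CWR22Rv1 and GALNT7 OE in DU145, with filled points for an adjusted p under 0.05 and a line at the median. With overexpression the medians of the 4 lists are -0.45, -0.27, -0.74 and -1.24, and with knockdown they are 0.24, 0.06, -0.06 and -0.45, the last of 2 genes only.

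Markers of other cell types were measured beside these groups. Of 5 leukocyte markers, PTPRC averaged under 1 normalised count in every group and CD3E was at 0 in all 12 libraries, while the 3 tested in DU145 (CD79A, CD14 and CD68) passed as lower and the summed level went from 2792 to 2990 in OE control to 1026 to 1157 in GALNT7 OE. The summed level of 5 fibroblast markers was 294 to 361 in shControl, 707 to 777 in GALNT7 KD, 304 to 431 in OE control and 73.0 to 165 in GALNT7 OE, and LUM made up most of the rise with knockdown. Of the 6 genes that mark lines such as DU145, 5 passed as higher and CD44 as lower in GALNT7 OE. Among all genes tested in DU145, 20.5% passed as lower and 22.9% as higher. The part of these marker shifts in the results above was not tested.

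The genes whose pattern over the 12 libraries was nearest to that of STAT3 and IL6ST were found by the root mean square difference of log2(normalised count + 1) minus the control mean, among 11816 genes with a mean of at least 50 in both tables. For STAT3 they were TOR1AIP2 (0.0695), RNF13 (0.0820) and NR1D1 (0.0848), where the median gene was at 0.402. For IL6ST they were PAQR8 (0.0948), P3H1 (0.114) and IPMK (0.137), where the median gene was at 0.523. SOCS3 was too low in CWR22Rv1 for this comparison.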

How the data were processed

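RNA was extracted with RNeasy kits and libraries were made with a TruSeq Stranded mRNA kit, per the labels. The submitters' processing notes name FastQC, Salmon, DESeq2, R 3.5.3 and the build hg38; the annotation release and the strand setting are not given in the sources used here. The authors deposited 1 table of normalised counts per cell line. In this deposited signal 1 read has the same worth for all genes of a library, and 100% of values came out as whole reads at a tolerance of 0.001 once divided by the smallest value above 0. Replicates differed by more than sampling noise, with a mean chi-square per gene of 9.44 to 26.0, so each was counted once.

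Symbols, positions and exon lengths came from GENCODE 29 (GRCh38), which held 94.4% of the identifiers. Each line was fitted separately in R 4.3.3 with limma 3.58.1, using eBayes with its trend option and log2 values after adding a pseudocount of 1. Genes averaging 5 or more in the 6 libraries of a line entered, p-values were adjusted by Benjamini-Hochberg, and 0.05 was the threshold. Fold changes on this scale understate those of low genes. The test was also run on simulated counts that gave every gene the same dispersion between replicates. Genes here differ in that spread, so no conclusion about these data is drawn from it. edgeR 4.0.16 and DESeq2 1.42.0 were run on the recovered reads as alternatives, beside other pseudocounts, filters, scalings, chromosome centring, a replicate block and leaving out each replicate.

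The 10 genes and all lists were chosen with earlier results of these data known. From each list, up to 3 highest and 3 lowest genes past the threshold with a mean of at least 50 were named, besides the 10 genes, GALNT7, IL6 and SOCS2-AS1. The list members were not trimmed after fitting. Some genes of these lists are not reported here.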

Additional observations from a re-analysis of the deposited data

How the results depend on the processing

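Of the 10 genes, 2 to 4 passed in knockdown and 7 to 9 in overexpression over all alternatives, against 3 and 8. The number of all genes called in knockdown, 1623, was 996 without a variance trend, 2666 with DESeq2 and 1002 with a replicate block, and 525 to 1332 with each replicate left out. Of other pathway genes in knockdown, 2 were called, against 1 with no filter on low values, 6 with DESeq2, 1 with the replicate block and 1 to 2 with a replicate left out. Of STAT3 targets in knockdown, 5 were called, against 3 with chromosome centring, 1 without a trend, 3 with the block and 1 to 4 with a replicate left out. The block called 1 acute phase gene in knockdown in place of 0. The cause was not tested.

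Same-numbered replicates correlated by under 0.1 in every pair, so the numbers were not taken as pairs. Under the block, IL6ST in knockdown had an adjusted p of 0.0744 and IL27RA 0.0631, and 7405 genes were called in overexpression against 8132. In DU145 every library correlated best with its own number, and in CWR22Rv1 this did not hold.

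IL6ST in knockdown was also at 0.0528 with chromosome centring and 0.0767 without a trend, and IL6ST in overexpression was at 0.0528 without a trend. In knockdown, the log2 fold change of LIFR turned to 0.01 without shControl replicate 2 and 0.13 without GALNT7 KD replicate 2, in a range of -0.37 to 0.13. That of SOCS3 turned to 0.04 with quantile normalisation, 0.33 without shControl replicate 3 and 0.39 without GALNT7 KD replicate 2, in a range of -0.49 to 0.39. TIMP1 in knockdown was lost with chromosome centring (adjusted p = 0.106), without a trend and with the block, and CCND1 and MCL1 without a trend. Rescaling to the 75th percentile moved the median of all genes in overexpression from -0.011 to -0.108 and the share of calls that were higher from 52.8% to 41.6%, and the calls of the 10 genes were as before. Depth limits SOCS3 and the ligands in CWR22Rv1.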
